A study of Homo sapiens with 39 samples.

Results

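AZD9496 and SAR439859, both estrogen receptor degraders, were set against each other in HCC1428-LTED cells at matched doses. HCC1428-LTED is a luminal breast cancer line that expresses the estrogen receptor and was selected by long-term estrogen deprivation, and all cells were kept in IMEM with charcoal-stripped serum and harvested after 24 h of treatment. The 12 libraries compared, of 39 in the series, were 3 per dose with AZD9496 at 30 and 300 nM and 3 per dose with SAR439859 at 30 and 300 nM. These libraries were picked by their labels, and the comparison itself was chosen with earlier results of these data known. Replicates are numbered here by library order within each group. DMSO, the vehicle, gave 3 further libraries. AZD-SAR, by its name a hybrid of AZD9496 and SAR439859, gave 6 libraries, 3 per dose at 30 and 300 nM. Its levels are given as values beside some genes. Every group is the same 1 line, the series text speaks of duplicates where the labels give 3 libraries, and no label says that libraries came from separate cultures, so p-values measure the spread between these libraries, which may be technical.

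The estrogen receptor is a ligand-activated transcription factor. With estrogen bound it recruits coactivators to enhancers of genes such as PGR, GREB1 and TFF1, and it drives luminal breast cancer cells into the cell cycle through cyclin D1 and MYC. Selective degraders occupy the ligand pocket, displace coactivators and send the receptor protein to the proteasome, so that receptor protein can fall with no fall in its mRNA. Cyclin D1 with its kinases releases E2F factors from the RB protein, and E2F factors switch on the genes for DNA replication.

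RNA levels are in TPM (transcripts per 1000000, which corrects for gene length), and sequencing depth is unknown because the table holds TPM only. Differences are AZD9496 minus SAR439859 in log2(TPM + 1), a scale that understates changes of low genes, from a limma fit over 14404 genes with dose as a block (n = 6 and 6). A gene was called at an adjusted p below 0.05 over all of them. All 10 luminal markers read were high in the 12 libraries, among them ESR1 (349 to 568 TPM) and GATA3 (1392 to 6847 TPM). Of 9 basal and mesenchymal markers in the table FN1 was the highest (30.9 to 55.9 TPM) and the other 8 stayed at or under 1.36 TPM, and of 14 stromal, endothelial and immune markers COL1A1 (9.31 to 17.4 TPM) and CD68 (4.09 to 11.4 TPM) were the highest, with PTPRC at 0 in 10 of 12 libraries and COL3A1 at 0 in 10 of 12. CD68, a lysosomal glycoprotein used as a macrophage marker, was higher with AZD9496 by 0.60 (SE 0.146, adjusted p = 0.0295). That call was lost without AZD9496 30 nM replicate 1, 2 or 3 (adjusted p = 0.0577, 0.0718 and 0.053 by limma) and in further settings. In bulk RNA, fewer cells of a type and less RNA per cell cannot be told apart.

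The number of genes listed was also read per library. AZD9496 libraries listed 21570 to 26756 genes above 0 and SAR439859 libraries 15818 to 22850 (exact permutation p = 0.035, two-sided, over 400 splits within dose; 0.127 adjusted over the 4 library measures read). The 10 highest genes took a mean 32.0% of TPM with AZD9496 and 37.2% with SAR439859 (exact permutation p = 0.065, adjusted 0.127). The SAR439859 30 nM replicates 1 and 3 stood apart from the other libraries, with mean correlations to the rest of 0.926 and 0.896 against 0.935 to 0.952. Replicate 3 listed the fewest genes. The part of these measures in the results was not tested, and the main counts are given without those libraries and with median-of-ratios scaling, which divides each library by its typical ratio to the others.

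The ligands differed in 1152 of 14404 genes (8% of those tested). With AZD9496, 934 genes were higher (6.48%) and 218 lower (1.51%), with median differences of 0.64 and -0.72, and 3413 genes had an unadjusted p below 0.05. A difference of at least 1 on the log2 scale was reached by 187 of the higher genes (20%) and 47 of the lower ones (21.6%). The 6 AZD9496 libraries did not overlap the 6 SAR439859 libraries in 556 of the 934 and 127 of the 218. Over all tested genes the libraries did not overlap in 5.52%, with AZD9496 higher in 4.46% and lower in 1.06%. Protein-coding genes made up 76.9% of the tested symbols, 92.7% of the higher and 72% of the lower ones, while symbols with no match in the annotation made up 16.4%, 5.35% and 19.7%. The split by direction depended on scaling, since median-of-ratios scaling moved the median of all genes from 0.09 to 0.001 and gave 601 higher (4.17%) and 443 lower genes (3.08%), so that 57.6% of calls were higher, against 81.1%. Of the 934 higher genes 600 were still called after scaling, and of the 218 lower genes all 218 were. Without SAR439859 30 nM replicates 1 and 3 the counts were 1541 higher (10.7%) and 255 lower (1.77%), and 587 of the 934 and 162 of the 218 were called under both checks. The total went from 1152 to 731 or 693 without SAR439859 300 nM replicate 1 or 2, to 669 or 707 without AZD9496 30 nM replicate 2 or 3, and to 707 or 614 without AZD9496 300 nM replicate 1 or 2.

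The largest differences in favour of AZD9496 included keratin, secreted protein and cytokine genes. KRT13, which encodes a keratin filament protein of stratified epithelia (chromosome 17, 41500981 to 41505705, GRCh38), measured 45.1, 32.1 and 32.7 TPM with 30 nM AZD9496 and 31.8, 27.1 and 34.3 TPM with 300 nM. With SAR439859 it measured 1.44, 1.78 and 0.946 TPM at 30 nM and 2.14, 5.16 and 3.72 TPM at 300 nM, so that no library of one ligand came near the other. The difference was 3.40 (SE 0.24, adjusted p = 9.72e-06). STC1, which encodes the secreted glycoprotein stanniocalcin 1, measured 22.1, 24.3 and 23.7 TPM with 30 nM AZD9496 and 27.7, 27.7 and 22.8 TPM with 300 nM. All 6 SAR439859 libraries lay between 3.72 and 5.24 TPM, and the difference was 2.27 (adjusted p = 9.67e-07). IL17RB, a cytokine receptor gene, ran from 23.0 to 31.9 TPM with AZD9496 (median 24.8) and from 3.25 to 5.75 TPM with SAR439859 (median 4.39), a difference of 2.30 (SE 0.14, adjusted p = 3.06e-06). The remaining coding genes among the first 12 were RAPGEFL1 (2.62), a Rap exchange factor-like gene, SERPINA3 (2.13), a protease inhibitor gene, IL20 (2.11), a cytokine gene, ID4 (2.07), an inhibitor of helix-loop-helix factors, KRT15 (2.04), another keratin gene, and E2F2 (2.0), an activator E2F gene. RAPGEFL1, IL20 and ID4 were listed at 0 in at least 1 SAR439859 library. Of the noncoding or uncertain ones, RP11-2K6.1 led with 11.7 to 39.4 TPM with AZD9496 and was listed at 0 in 5 of 6 SAR439859 libraries, and LINC01016, a long noncoding RNA, differed by 2.49. The histone gene HIST1H2AK (1.99, adjusted p = 0.0358) is uncertain because near-identical copies share its reads, and its call was lost in 10 of the other settings tried.

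**Figure D1:**
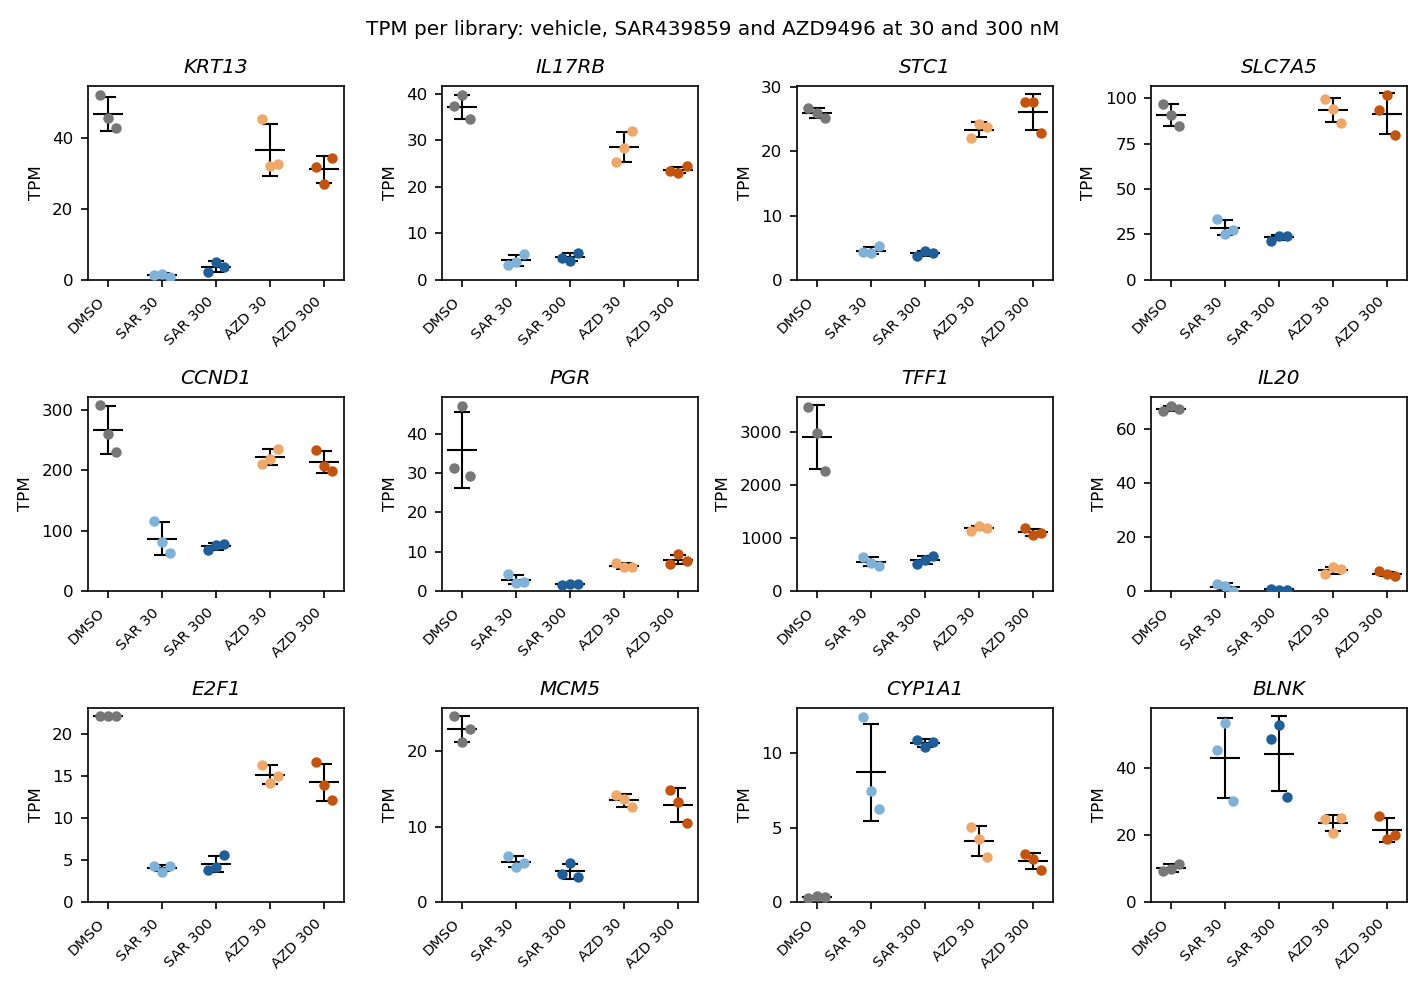
TPM per library (linear axes from 0) for 12 genes in the 3 libraries each of DMSO, SAR439859 at 30 and 300 nM (SAR 30, SAR 300) and AZD9496 at 30 and 300 nM (AZD 30, AZD 300); horizontal lines are means and bars 1 SD of 3 libraries. KRT13, STC1 and SLC7A5 lie nearer to the DMSO level with AZD9496 than with SAR439859, while IL20 is low with both and CYP1A1 and BLNK are higher with SAR439859.

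ESR1, the estrogen receptor gene itself (chromosome 6, 151656691 to 152129619), measured 422, 510 and 492 TPM with 30 nM AZD9496, 410, 568 and 515 TPM with 300 nM, 412, 425 and 361 TPM with 30 nM SAR439859 and 349, 376 and 374 TPM with 300 nM. The highest SAR439859 library (425 TPM) lay above 2 AZD9496 libraries, and DMSO averaged 436 ± 24.9 TPM (SD, n = 3). The difference of 0.34 (95% interval 0.13 to 0.55) missed the threshold at an adjusted p of 0.0533, and it passed in 5 of the settings tried, among them all 39 libraries in the fit (0.0379), over which it ran from 0.0379 to 0.35. Among 15 tested genes for the receptor and its coregulators 1 was higher with AZD9496 and none lower, beside 6.48% and 1.51% of all genes. That gene was PELP1, a coregulator scaffold gene, at 23.2 ± 10.1 against 9.89 ± 1.31 TPM (SD, n = 6; 1.07, adjusted p = 0.0127). Without SAR439859 30 nM replicates 1 and 3 the count was 4, and it was 3 without SAR439859 30 nM replicate 1 and 1 or 2 without any other library.

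Genes that estrogen induces through the receptor were mostly higher with AZD9496. Of 38 tested of 42 listed, 23 were higher and 2 lower, with a median difference of 0.85 beside 0.09 for all genes (22 and 2 after median-of-ratios scaling, 24 and 2 without SAR439859 30 nM replicates 1 and 3). The counts of this and each later list stand beside 6.48% of all genes higher and 1.51% lower (4.17% and 3.08% after median-of-ratios scaling). CCND1, which encodes cyclin D1 (chromosome 11, 69641087 to 69654474), measured 210, 219 and 235 TPM with 30 nM AZD9496 and 234, 207 and 199 TPM with 300 nM. It measured 116, 81.2 and 62.2 TPM with 30 nM SAR439859 and 67.4, 76.8 and 77.7 TPM with 300 nM. The groups did not overlap, and the difference was 1.45 (SE 0.128, adjusted p = 5.81e-05). PGR, the progesterone receptor gene (chromosome 11, 101029624 to 101130524), measured 7.19, 5.95 and 5.98 TPM with 30 nM AZD9496, 6.96, 9.27 and 7.66 TPM with 300 nM, 4.29, 1.99 and 2.32 TPM with 30 nM SAR439859 and 1.49, 1.80 and 1.79 TPM with 300 nM. The 30 nM SAR439859 replicate 1 was the nearest to AZD9496, and the difference was 1.35 (SE 0.189, adjusted p = 0.00147). GREB1, an estrogen-induced coregulator gene, did overlap, because that same library stood at 4.37 TPM where AZD9496 ran from 3.41 to 6.40 TPM. Its difference was 1.31 (SE 0.251, adjusted p = 0.00914).

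TFF1, a secreted trefoil peptide gene of 1057 to 1230 TPM with AZD9496 (median 1161) and 477 to 651 TPM with SAR439859 (median 557), differed by 1.02 (SE 0.0956, adjusted p = 8.59e-05). EGR3, an immediate early transcription factor gene, ran from 3.69 to 5.89 TPM with AZD9496 and from 0 to 0.84 TPM with SAR439859, and differed by 2.23 (SE 0.149). SLC7A5, which encodes the large neutral amino acid transporter LAT1 (chromosome 16, 87830023 to 87869488), ran from 79.7 to 101.7 TPM with AZD9496 (median 93.7) and from 21.6 to 33.5 TPM with SAR439859 (median 24.9), a difference of 1.80 (SE 0.0994, adjusted p = 1.73e-06). MYC, the growth-promoting transcription factor gene, showed a smaller difference of 0.60 (SE 0.108, adjusted p = 0.00667), and its libraries overlapped at 25.2 to 34.0 against 15 to 26.2 TPM. The 2 estrogen-induced genes that went the other way, named after their values were seen, were AMIGO2, an adhesion protein gene (2.85 ± 0.454 against 5.88 ± 1.13 TPM, SD, n = 6, -0.83), and CA12, a carbonic anhydrase gene (204 ± 27.1 against 270 ± 29 TPM, SD, n = 6, -0.40). PDZK1, another estrogen-induced gene, failed the expression filter and was listed at 0 in all 6 SAR439859 libraries and in 2 of 6 AZD9496 libraries.

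Genes that estrogen represses were read next. Of 15 tested, none was higher and 4 were lower with AZD9496, with a median difference of -0.31 (7 lower after median-of-ratios scaling, 6 without SAR439859 30 nM replicates 1 and 3). Over all genes 6.48% were higher and 1.51% lower, at a median of 0.09. BLNK, a B-cell linker adaptor gene (chromosome 10, 96191702 to 96271587), measured 24.7, 20.7 and 25.0 TPM with 30 nM AZD9496, 25.5, 18.8 and 19.9 TPM with 300 nM, 45.4, 53.3 and 30.0 TPM with 30 nM SAR439859 and 48.7, 52.7 and 31.4 TPM with 300 nM. No library overlapped, with the SAR439859 libraries at 30.0 and 31.4 TPM nearest to AZD9496, and the difference was -0.90 (SE 0.165, adjusted p = 0.00724). TP53INP1, a stress-response and autophagy gene, ran from 58.4 to 70.4 TPM with AZD9496 and from 92.7 to 131 TPM with SAR439859 (-0.67, adjusted p = 0.00179). CCNG2, an atypical cyclin gene (-0.54), and BCAS1 (-0.50) were the other 2.

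Keratin genes led the luminal identity list. Of 17 luminal identity genes tested, 4 were higher and none lower, at a list median of 0.06 (4 higher and 1 lower after median-of-ratios scaling, at a median of -0.04). Over all genes 6.48% were higher and 1.51% lower, and the list median lay under the all-gene median of 0.09. KRT19, a simple-epithelial keratin gene, averaged 3360 ± 277 TPM with AZD9496 and 1695 ± 301 TPM with SAR439859 (SD, n = 6; 0.999, SE 0.115), with no overlap. KRT18 (0.60), KRT8 (0.69) and XBP1 (0.44), a secretory-pathway transcription factor gene, were called with overlapping libraries, and the KRT8 call was lost without the expression filter (adjusted p = 0.0693) and with scaling added to the removal of SAR439859 30 nM replicates 1 and 3 (0.0544).

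Called cell cycle entry genes were all higher with AZD9496. Beside 6.48% of all genes higher and 1.51% lower, 4 of 13 cyclins, kinases and inhibitors of G1 tested were higher and none lower. Besides CCND1 these were CDC25A, an activating phosphatase gene (1.06), CDK4, the cyclin D partner kinase gene (82.5 ± 2.91 against 57.7 ± 13 TPM, SD, n = 6, 0.54), and CDKN2C, an inhibitor gene (0.50), and the CDC25A call was lost with a pseudocount of 0.1 (adjusted p = 0.0603) and that of CDKN2C in 4 settings. Of 18 E2F and pocket protein genes 6 were higher and none lower. E2F1, the activator E2F gene (chromosome 20, 33675683 to 33686404), measured 16.3, 14.1 and 15 TPM with 30 nM AZD9496 and 16.6, 13.9 and 12.2 TPM with 300 nM, and 4.21, 3.56, 4.32, 3.84, 4.12 and 5.56 TPM in the SAR439859 libraries. The lowest AZD9496 library was above the highest SAR439859 one, and the difference was 1.58 (SE 0.122, adjusted p = 2e-05). E2F2 ran from 7.74 to 13.2 TPM against 1.19 to 3.17 TPM. MYBL2, an E2F-driven transcription factor gene of the MMB complex, ran from 76.3 to 120 TPM against 31.5 to 46.6 TPM (1.42, adjusted p = 3.32e-05), and E2F7, a repressor E2F gene, differed by 0.999 (adjusted p = 0.0158).

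Of 34 DNA replication genes tested, 23 were higher with AZD9496 and none lower, at a median of 0.82 (22 after median-of-ratios scaling, 26 without SAR439859 30 nM replicates 1 and 3, 20 to 24 with any 1 of the 12 libraries left out). MCM5, a subunit of the replicative helicase (chromosome 22, 35400063 to 35425430), measured 14.3, 13.7 and 12.6 TPM with 30 nM AZD9496, 14.9, 13.3 and 10.5 TPM with 300 nM, 6.13, 4.70 and 5.19 TPM with 30 nM SAR439859 and 3.73, 5.12 and 3.29 TPM with 300 nM. The groups lay well apart, and the difference was 1.33 (SE 0.133, adjusted p = 0.000131). DTL, a substrate receptor for destruction of the licensing factor CDT1, ran from 21.2 to 36.6 TPM against 7.26 to 14.5 TPM (1.29, adjusted p = 0.0013), and CDT1 itself ran from 8.17 to 15.3 TPM against 2.53 to 8.53 TPM (1.38, adjusted p = 0.00863), with overlapping libraries. CDC6, a helicase loader gene, differed by 1.36 with an adjusted p of 0.046, which was lost in 14 of the other settings.

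E2F factors bind 8-base sites near the start of such genes. The promoters of E2F1, E2F2, DTL and CDT1 are printed because each of these genes was higher with AZD9496 and each window holds such a site. Some other genes higher with AZD9496, among them MYBL2, E2F7 and RRM2, have no such site in their windows. Sequences are 300 bases each from RefSeq on GRCh38.p14, from 250 bases before to 50 bases after the annotated start, 5′ to 3′ on the gene's strand. The windows are chr20:33686336-33686635 (minus strand) for E2F1, chr1:23531184-23531483 (minus) for E2F2, chr1:212035498-212035797 (plus) for DTL and chr16:88803539-88803838 (plus) for CDT1. Capitals mark the match, TTTGGCGC in the first 3 and the reverse complement of TTTCCCGC in CDT1.
E2F1: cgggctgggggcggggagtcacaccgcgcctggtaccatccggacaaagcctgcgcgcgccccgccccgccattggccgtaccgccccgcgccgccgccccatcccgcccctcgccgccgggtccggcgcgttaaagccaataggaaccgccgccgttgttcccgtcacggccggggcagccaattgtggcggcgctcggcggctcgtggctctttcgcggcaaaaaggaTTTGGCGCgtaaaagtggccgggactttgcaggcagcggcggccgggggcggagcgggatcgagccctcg
E2F2: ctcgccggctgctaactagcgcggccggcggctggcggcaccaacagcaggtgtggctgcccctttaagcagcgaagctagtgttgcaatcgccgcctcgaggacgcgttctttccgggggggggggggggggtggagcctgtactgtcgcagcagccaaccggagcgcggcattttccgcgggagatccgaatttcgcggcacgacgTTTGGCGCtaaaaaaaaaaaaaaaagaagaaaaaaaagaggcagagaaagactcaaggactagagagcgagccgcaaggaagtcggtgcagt
DTL: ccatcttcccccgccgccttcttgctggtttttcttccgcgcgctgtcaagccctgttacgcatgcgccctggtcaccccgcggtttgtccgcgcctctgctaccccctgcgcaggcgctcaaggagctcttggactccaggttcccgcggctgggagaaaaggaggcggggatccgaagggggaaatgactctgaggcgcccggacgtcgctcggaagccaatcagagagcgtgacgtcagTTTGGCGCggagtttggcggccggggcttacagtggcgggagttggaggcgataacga
CDT1: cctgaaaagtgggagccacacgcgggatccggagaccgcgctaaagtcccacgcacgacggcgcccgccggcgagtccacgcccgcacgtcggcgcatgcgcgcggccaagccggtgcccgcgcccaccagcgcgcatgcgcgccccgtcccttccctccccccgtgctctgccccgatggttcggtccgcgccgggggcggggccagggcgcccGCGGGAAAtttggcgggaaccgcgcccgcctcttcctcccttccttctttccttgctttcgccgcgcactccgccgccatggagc

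Both strands were searched, and matches to both motifs may share bases. TTTGGCGC stood in 7 of the 30 DNA replication promoters that the RefSeq table holds for 34 tested genes (23.3%), against 1.18% of the 9094 promoters of tested genes and 0.659% of all 27305 promoters of that length. TTTCCCGC stood in 9 of 30 (30%), against 2.71% and 1.66%. Of 28 promoters of mitosis genes, 19 (67.9%) held TTTGAA, the letters of the cell cycle homology region through which the MuvB complex acts, against 9.14% of the promoters of tested genes and 15.4% of all promoters. None of the 30 replication promoters held TTTGAA. The shares above describe the lists and not the calls. Of 664 promoters of genes called higher with AZD9496, 16 (2.41%) held TTTGGCGC and 20 (3.01%) TTTCCCGC. Of 129 promoters of genes called lower, 0 held TTTGGCGC and 1 (0.775%) TTTCCCGC. None of these shares was tested.

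Genes of nucleotide supply and DNA repair had fewer calls. Of 22 nucleotide synthesis genes 6 were higher and 1 lower with AZD9496 (4 and 1 after median-of-ratios scaling). With 1 library left out, 4 to 9 were higher and 0 to 1 lower. RRM2, the S-phase subunit of ribonucleotide reductase, ran from 86.2 to 100.9 TPM against 28.6 to 73.4 TPM (1.30, adjusted p = 0.0022), and TYMS, thymidylate synthase, from 38.3 to 45.8 TPM against 17.8 to 24.1 TPM (0.93, adjusted p = 0.000103). Of 22 homologous recombination and Fanconi genes 8 were higher and none lower, at a median of 0.61. That count was 5 without AZD9496 30 nM replicate 3, up to 10 without another library and 12 without SAR439859 30 nM replicates 1 and 3. BRCA1, a homologous recombination gene, averaged 23.1 ± 5.49 TPM against 10.5 ± 1.82 TPM (SD, n = 6; 1.05, adjusted p = 0.000496) and RAD54L, a recombination motor protein gene, 4.06 ± 0.886 against 1.21 ± 0.336 TPM (SD, n = 6; 1.19).

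Mitosis genes differed less. Of 34 tested, 9 were higher and none lower, at a median of 0.36 (6 after median-of-ratios scaling, 15 without SAR439859 30 nM replicates 1 and 3, and 4 to 13 with 1 library left out). It was 4 without SAR439859 300 nM replicate 2 or AZD9496 300 nM replicate 1 or 2, and 5 without SAR439859 30 nM replicate 2 or AZD9496 30 nM replicate 2 or 3. CDK1, the mitotic kinase gene, ran from 106 to 199 TPM against 40.8 to 96.4 TPM (1.15, adjusted p = 0.0133), and its call was lost without the expression filter (0.0567). SPC25, a kinetochore gene, averaged 18.0 ± 1.16 against 8.48 ± 2.07 TPM (SD, n = 6; 1.03, adjusted p = 0.0012). MKI67, the proliferation marker gene, averaged 51.2 ± 5.91 against 42.0 ± 7.01 TPM (SD, n = 6) with overlapping libraries and was not called (0.29, adjusted p = 0.151). Replication-dependent histone genes, whose mRNAs accumulate in S phase, were higher in 16 of 18 tested and lower in none, at a median of 0.89. The largest difference in that list, for HIST1H1B, a linker histone gene, was 165 to 209 TPM against 34.8 to 89.8 TPM (1.77, adjusted p = 0.000131). Histone genes are uncertain as single genes because near-identical copies share reads.

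**Figure D2:**
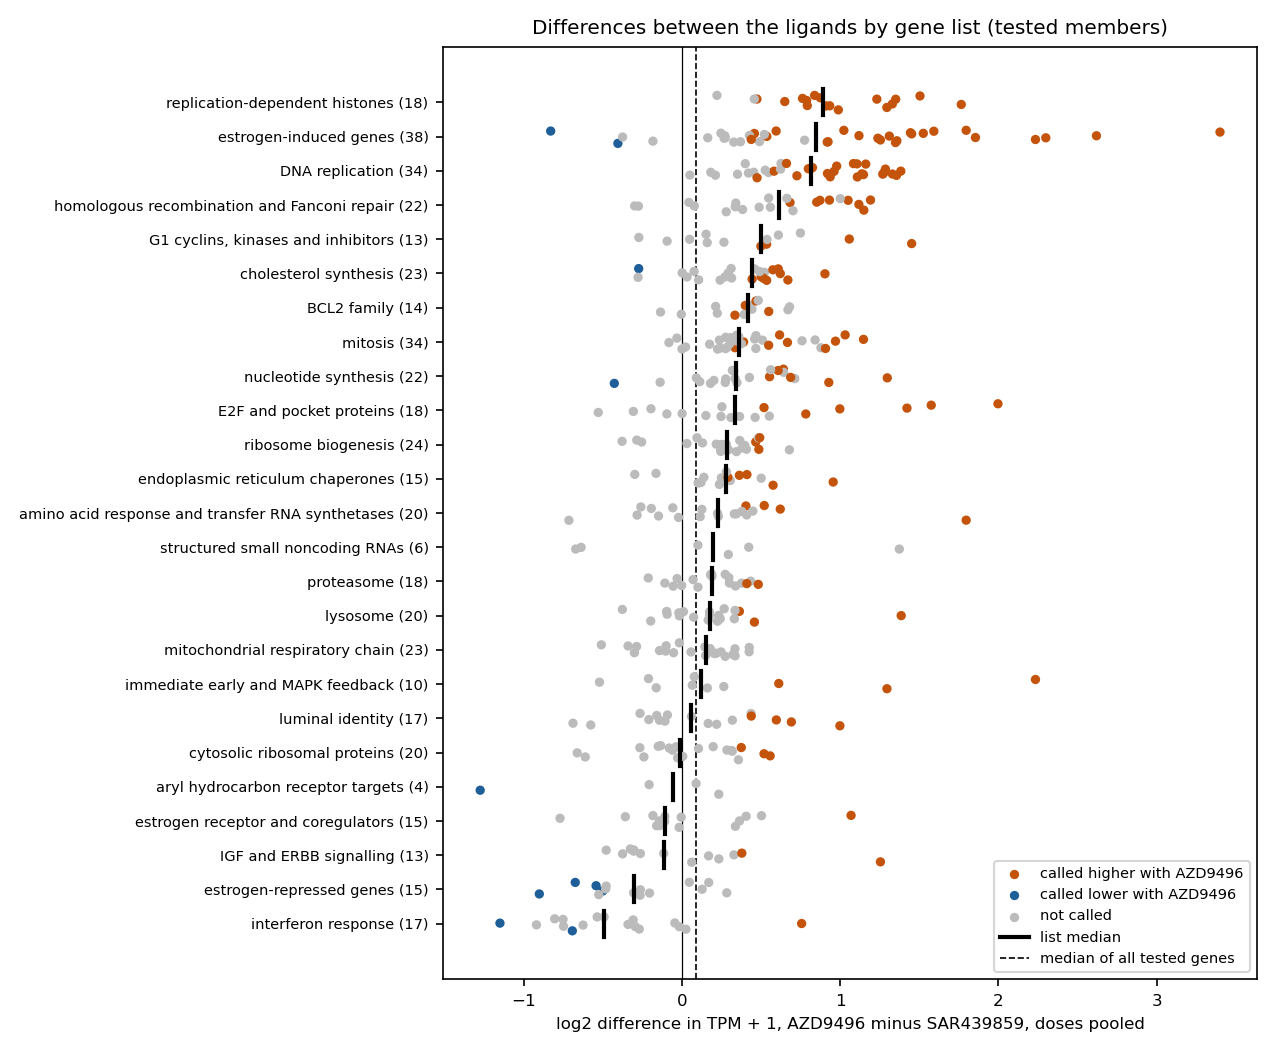
Log2 difference in TPM + 1 (AZD9496 minus SAR439859, doses pooled) of each tested member of 25 gene lists, with the number tested in brackets; orange and blue points were called higher and lower, grey points were not called, black bars are list medians and the dashed line is the median of all 14404 genes (0.09). Histones, estrogen-induced genes and DNA replication genes sit furthest right, and interferon response and estrogen-repressed genes furthest left, the interferon median of -0.49 being -0.21 without SAR439859 30 nM replicate 1.

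Sterol and amino acid supply genes were also read, beside 6.48% of all genes higher and 1.51% lower. Of 23 cholesterol synthesis genes tested, 9 were higher and 1 lower with AZD9496, at a median of 0.44 (8 and 1 after median-of-ratios scaling). SQLE, squalene epoxidase, ran from 191 to 222 TPM against 116 to 146 TPM (0.62, adjusted p = 0.000496), EBP, sterol isomerase, from 69.4 to 73.8 TPM against 38.3 to 51.0 TPM (0.67, adjusted p = 0.000266), and HMGCS1, an early synthase of the pathway, differed by 0.61 (adjusted p = 0.0128). The lower gene was INSIG1, which encodes a brake on the pathway (-0.27). Of 20 amino acid response and transfer RNA synthetase genes 4 were higher and none lower, led by SLC7A5 and its partner chain SLC3A2, at 66.8 to 73.4 TPM against 39.8 to 54.2 TPM (0.62, adjusted p = 0.00191). Ribosome biogenesis genes were higher in 3 of 24, beside 6.48% of all genes, and in 0 without the expression filter. With 1 library left out that count ran from 0 to 5. It was 5 without SAR439859 30 nM replicate 1 and 1 without AZD9496 30 nM replicate 2. It was 0 without SAR439859 30 nM replicate 2 or SAR439859 300 nM replicate 1 or 2. Leaving out AZD9496 30 nM replicate 3 or AZD9496 300 nM replicate 1 or 2 also gave 0. Without SAR439859 30 nM replicates 1 and 3 the count was 9, beside 10.7% of all genes.

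Signalling and stress lists held single large differences, and over all genes 6.48% were called higher and 1.51% lower. Of 10 immediate early genes 3 were higher and none lower (2 to 3 higher with 1 library left out). Besides EGR3 these included IER3, a survival-related early gene, at 306 to 419 TPM against 130 to 177 TPM (1.30, adjusted p = 2e-05). Of 13 IGF and ERBB genes 2 were higher and none lower (1 to 3 higher and at most 1 lower with 1 library left out), with IGFBP4, an IGF-binding protein gene, at 66.1 to 87.6 TPM against 24.7 to 45 TPM (1.26, adjusted p = 0.000212). Of 15 endoplasmic reticulum chaperone genes 5 were higher and none lower, but 2 after median-of-ratios scaling. That count ran from 2 to 8 with 1 library left out, and it was 2 without SAR439859 30 nM replicate 2, AZD9496 30 nM replicate 3 or AZD9496 300 nM replicate 1 or 2 and 8 without SAR439859 30 nM replicate 1. HYOU1, a chaperone of the secretory pathway, ran from 29.6 to 48.1 TPM against 15.8 to 28.4 TPM (0.96, adjusted p = 0.00285). Of 14 BCL2 family genes 4 were higher, and 2 after scaling. With 1 library left out the count ran from 1 to 5, and it was 1 without SAR439859 300 nM replicate 2, AZD9496 30 nM replicate 3 or any of the 3 AZD9496 300 nM replicates. By size of difference the 4 were BAX, BCL2, BCL2L1 and MCL1, and the calls of BAX, BCL2L1 and MCL1 were each lost in several settings. BCL2 ran from 23.8 to 28.5 TPM against 17.1 to 19.8 TPM (0.47, adjusted p = 0.00452). Of 17 interferon response genes 1 was higher and 2 lower, at a median of -0.49, and with 1 library left out 1 was higher and 0 to 3 were lower. SAR439859 30 nM replicate 1 stood apart in this list: its summed level over the 18 listed genes was 874 TPM, against a median of 372 TPM for SAR439859 and 363 to 475 TPM for AZD9496. Without that library the median was -0.21, with 1 gene higher and 2 lower. BST2, the gene for tetherin, a protein that retains budding viruses, was the higher one (193 ± 29.1 against 114 ± 21.0 TPM, SD, n = 6, 0.76), with its call lost in 2 settings, at an adjusted p of up to 0.0816. The lower ones, MX1 and IRF9, lost their calls in 10 and 6 of the settings tried.

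Housekeeping lists held at most 3 calls each. None of 23 respiratory chain genes was called at a median of 0.15, and 2 of 18 proteasome, 3 of 20 lysosome and 3 of 20 cytosolic ribosomal protein genes were higher (1 in each list after median-of-ratios scaling), with none lower. With 1 library left out these counts ran from 1 to 4, from 0 to 3 and from 1 to 3, the lysosome count being 0 without AZD9496 30 nM replicate 2 and the proteasome count 4 without SAR439859 30 nM replicate 1. These shares lie on both sides of the 6.48% of all genes called higher. None of 6 structured small noncoding RNAs was called.

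The genes lower with AZD9496, and so higher with SAR439859, included enzyme, ciliary and noncoding genes. CYP1A1, a cytochrome P450 gene induced by the aryl hydrocarbon receptor (chromosome 15, 74719542 to 74725610), measured 5.02, 4.23 and 3.03 TPM with 30 nM AZD9496, 3.21, 2.87 and 2.17 TPM with 300 nM, 12.5, 7.47 and 6.24 TPM with 30 nM SAR439859 and 10.9, 10.4 and 10.7 TPM with 300 nM. The groups did not overlap, and the difference was -1.27 (SE 0.199, adjusted p = 0.00286). It was the 1 of 4 tested aryl hydrocarbon receptor targets that was called, where 1.51% of all genes were called lower. C10ORF10, a gene for a fasting- and hormone-responsive protein also known as DEPP, ran from 3.32 to 5.37 TPM with AZD9496 and from 9.69 to 21.9 TPM with SAR439859 (-1.46, adjusted p = 0.000431). DYNC2H1, the heavy chain of the ciliary dynein (-1.36), LCN12, a lipocalin gene (-1.54), LY6G6C (-1.28), RIIAD1 (-1.63) and CROT, a peroxisomal carnitine acyltransferase gene (-1.22), were the other coding genes of the first 12 whose calls held in every setting tried. CA11 (-1.48) lost its call in 7 settings. The largest fitted difference belonged to AC073284.4, a symbol with no match in the annotation, at 0 to 2.04 TPM against 4.22 to 15.9 TPM. The pseudogenes COX17P1 and RPL32P29 are uncertain because they share sequence with their parent genes.

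**Figure D3:**
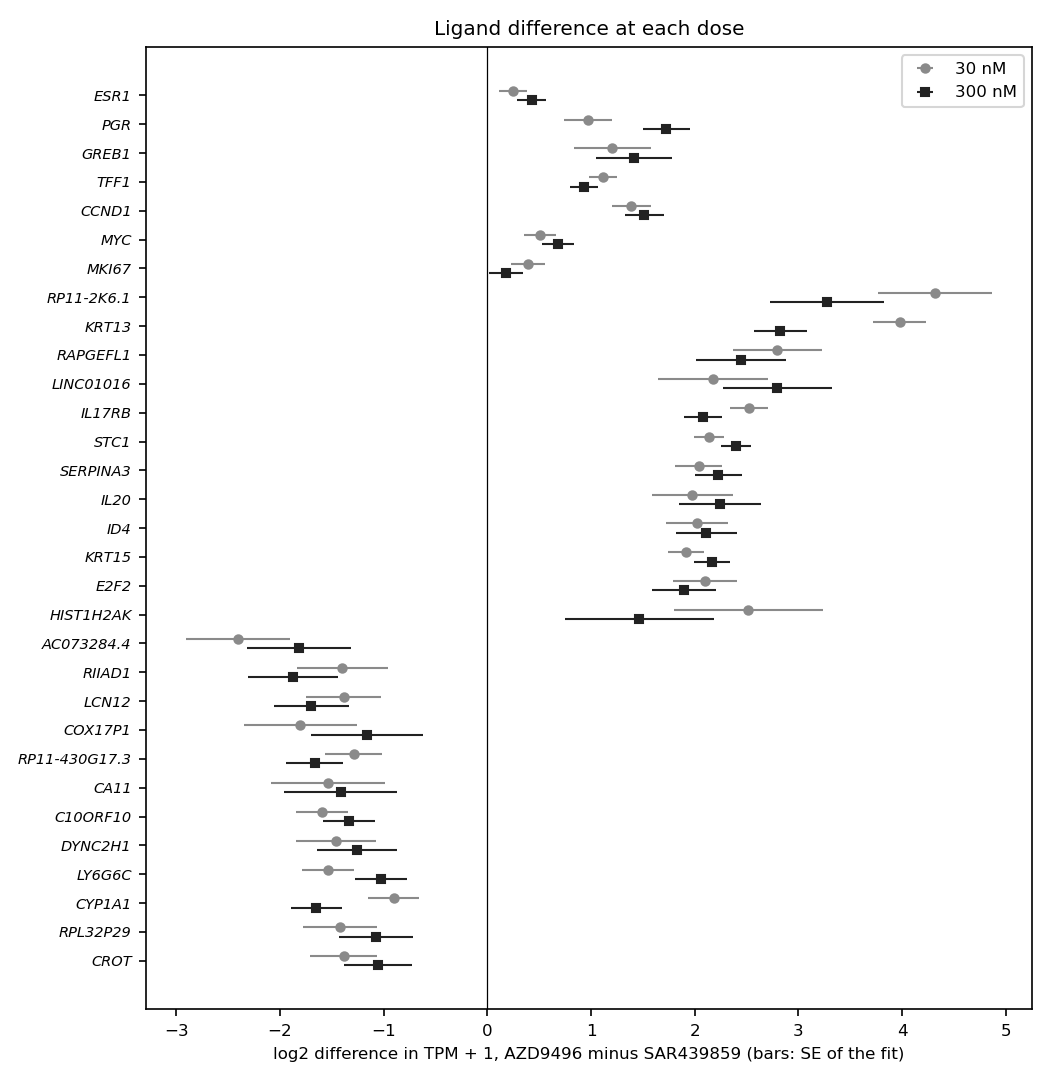
Log2 difference in TPM + 1 (AZD9496 minus SAR439859) at 30 nM (grey circles) and 300 nM (black squares) for the 7 genes always read and the 12 leading genes in each direction; bars are 1 SE of the fit, 3 libraries per group. Each gene lies on the same side of 0 at both doses.

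The comparison was also made within each dose. At 30 nM 160 genes were called (1.11%), 141 higher (0.979%) and 19 lower (0.132%) with AZD9496, and at 300 nM 363 were called (2.52%), 302 higher (2.1%) and 61 lower (0.423%). Of these, 116 were called at both doses, 72.5% of the 30 nM calls and 32% of the 300 nM calls, and all 116 had the same direction. The ligand by dose interaction gave 0 calls by limma and 614 genes at an unadjusted p below 0.05, with a median SE of 0.359, so that dose effects of moderate size were not detectable. The interaction count was 5 without SAR439859 30 nM replicates 1 and 3. For CCND1 the difference was 1.39 at 30 nM and 1.52 at 300 nM, for KRT13 3.98 and 2.83, for PGR 0.97 and 1.73, and for CYP1A1 -0.90 and -1.65. The 30 nM count went to 357 without SAR439859 30 nM replicate 1, to 71, 58 or 58 without AZD9496 30 nM replicate 1, 2 or 3 and to 106 without AZD9496 300 nM replicate 2. The 300 nM count went to 602 without SAR439859 30 nM replicate 3, to 75 or 116 without SAR439859 300 nM replicate 1 or 2, to 194 without AZD9496 30 nM replicate 3 and to 111 or 67 without AZD9496 300 nM replicate 1 or 2, and without its replicate 3 it was 97 higher and 6 lower.

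The position of vehicle relative to both ligands was read from the mean of the 4 ligand groups minus DMSO, a contrast in which the ligand difference cancels. It called 2536 of 14404 genes, 1532 higher (10.6%) and 1004 lower (6.97%) than DMSO, and the total went to 1530, 1220 or 1407 without DMSO replicate 1, 2 or 3. Median-of-ratios scaling turned this split, to 1234 higher and 1578 lower, so that 43.9% of calls were higher, against 60.4%. Structured small noncoding RNAs summed to 177487 to 204025 TPM with DMSO, 51113 to 139509 with AZD9496 and 26042 to 98755 with SAR439859. Their part in the split was not tested. Of the 934 genes higher with AZD9496, 475 (50.9%) lay lower than DMSO on average over both ligands and 14 (1.5%) higher. Of the 218 genes lower with AZD9496, 160 (73.4%) lay higher than DMSO and none lower. After median-of-ratios scaling the shares were 418 of 601 (69.6%) and 296 of 443 (66.8%), and without SAR439859 30 nM replicates 1 and 3 they were 744 of 1541 (48.3%) and 192 of 255 (75.3%). Over all tested genes, 11% lay lower and 8.57% higher than DMSO after scaling, and 9.91% and 13.8% without those replicates. By list, 28 of 38 estrogen-induced and 31 of 34 DNA replication genes lay lower than DMSO, and 10 of 15 estrogen-repressed genes higher. Of the 3 DMSO libraries, 2 carry an index sequence that a treated library also carries, and the part of pooling in this contrast was not tested.

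**Figure D4:**
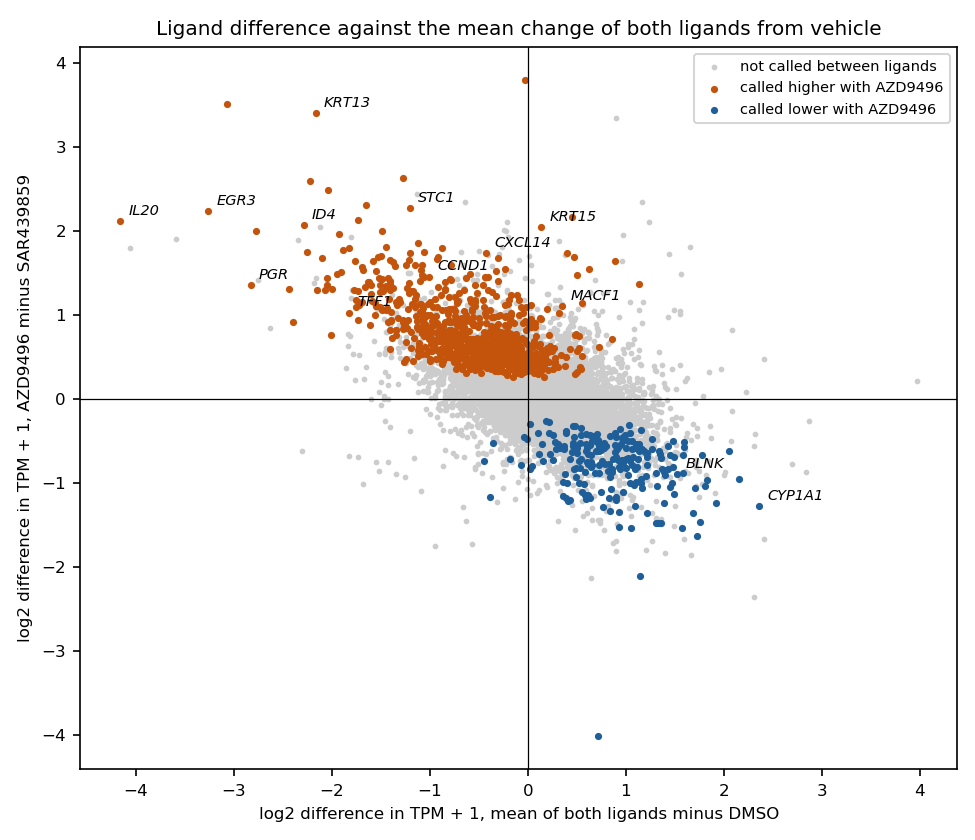
Each point is 1 of 14404 genes, with the mean of both ligands minus DMSO on the x axis and AZD9496 minus SAR439859 on the y axis, both as log2 differences in TPM + 1; orange and blue points were called higher and lower between the ligands. Most orange points lie left of 0 and most blue points right of 0, with KRT15 and MACF1 among the orange points on the right.

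Levels of single genes against DMSO, which both ligands share as control, fell into several patterns. They are given without median-of-ratios scaling, which would place AZD9496 lower relative to DMSO. The factors by which it divides ran from 0.992 to 1.17 for AZD9496, from 0.967 to 1.2 for SAR439859 and from 0.951 to 0.984 for DMSO. STC1 averaged 25.9 ± 0.833 TPM with DMSO (SD, n = 3), and AZD9496 differed from it by -0.07 (SE 0.109, adjusted p = 0.747) where SAR439859 differed by -2.34 (adjusted p = 7.24e-08). SLC7A5 averaged 90.8 ± 6.18 TPM with DMSO (SD, n = 3) and differed from it by 0.02 with AZD9496 (SE 0.11, adjusted p = 0.923) and by -1.77 with SAR439859 (adjusted p = 4.16e-07). CCND1 likewise differed by -0.29 with AZD9496 (SE 0.159, adjusted p = 0.311) and by -1.74 with SAR439859. IL20 was lower than DMSO with both, by -3.11 with AZD9496 and -5.22 with SAR439859 (SE 0.306) from 67.5 ± 0.938 TPM (SD, n = 3). CYP1A1 was higher with both, by 1.72 and 2.99 (SE 0.199) from 0.316 ± 0.0983 TPM (SD, n = 3). KRT15 lay on both sides, 1.16 above DMSO with AZD9496 (adjusted p = 0.00846) and 0.88 on the log2 scale under it with SAR439859 (-0.88, adjusted p = 0.0111), at 23.3 ± 4.16, 10.4 ± 4.24 and 5.03 ± 1.60 TPM with AZD9496, DMSO and SAR439859.

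AZD-SAR, given without a test, averaged 2.74 ± 0.768 TPM for KRT13, 5.65 ± 0.497 TPM for STC1, 93.2 ± 10.8 TPM for CCND1, 27.8 ± 4.76 TPM for SLC7A5, 3.31 ± 1.13 TPM for PGR and 7.66 ± 1.38 TPM for CYP1A1 (SD, n = 6). The SAR439859 means for those genes were 2.53, 4.35, 80.2, 26.1, 2.28 and 9.71 TPM, and the AZD9496 means were 33.9, 24.7, 217, 92.5, 7.17 and 3.42 TPM. For each of these 6 genes, picked after their values were seen, the hybrid's mean lay nearer to that of SAR439859. Only AZD9496 and SAR439859 were compared as a pair, chosen with earlier results of these data known. The p-values were not adjusted over the other pairs possible in the series.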

How the data were processed

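The authors' deposited table holds TPM per gene symbol for 39 libraries, 13 groups of 3, and each column sums to 1000000, so depth is unknown. Libraries were stranded, per the labels' protocols, and aligned with STAR to GRCh38, per the submitters' processing notes. No source used here gives versions, the counting tool or the annotation. Groups came from the labels. Of 46706 symbols, 14404 whose mean over all libraries reached 1 TPM entered limma 3.58.1 in R 4.3.3 on log2(TPM + 1) (empirical Bayes with trend, 12 libraries, dose as a block, 9 residual degrees of freedom, Benjamini-Hochberg, two-sided). Dose-wise, interaction and vehicle contrasts used group means. Library measures were compared by an exact permutation test. The fit was tested on simulated data.

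The comparison and the 27 gene lists were chosen with earlier results of these data known, so lists are described by counts and medians without a test. Genes were named by rule. Always included were ESR1, MKI67, CCND1, MYC, TFF1, GREB1 and PGR, then the first 12 called genes each way by size with at least 5 TPM and no overlap of libraries, then up to 4 called members per list. Positions come from GENCODE on GRCh38, which matched 83.61% of tested symbols. Alternatives were a pseudocount of 0.1, no filter, median-of-ratios scaling, all 39 libraries, array quality weights and leaving out libraries; 1 was added after seeing the data.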

Additional observations from a re-analysis of the deposited data

How the results depend on the processing

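The pooled count of 1152 called genes became 717 without the expression filter, 2244 with all 39 libraries in the fit, 2496 with array quality weights and 1796 without SAR439859 30 nM replicates 1 and 3, and ran from 614 to 1699 with 1 library left out. The 30 nM count of 160 became 770 with all 39 libraries, 557 with weights, 87 without those 2 libraries and 53 with median-of-ratios scaling in addition (a combination chosen after seeing the data), and ran from 58 to 357. The 300 nM count of 363 became 202, 1024, 2675, 798 and 637 with no filter, all 39 libraries, weights, without the 2 libraries and with scaling in addition, and ran from 67 to 602. The interaction count of 0 became 7 with no filter, 5 without the 2 libraries and 6 with scaling in addition, and ran from 0 to 4. The vehicle count of 2536 became 5647 with weights and ran from 1220 to 3500. The mean difference of the estrogen-induced list, 0.92, became 1.11 with a pseudocount of 0.1 and ran from 0.884 to 0.974. The cause of these moves was not tested. No named gene changed sign. Of 100 called named genes 37 lost the call in at least 1 setting. Over genes and settings, 1640 pairs kept direction and side of the threshold, 292 fell short of it and 6 newly passed it. No paired analysis was possible because the labels give no shared replicate numbers. Depth is unknown, so low genes listed at 0 may be undersampled.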

Other observations

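KRT13, KRT15 and KRT19 are neighbours in the type I keratin cluster on chromosome 17, within 27.3 kb from the start of KRT13 to the end of KRT19. This locus was chosen after its values were seen. All 4 genes tested within 100 kb of that span were higher with AZD9496, the other one being KRT32, a hair keratin gene, at 8.22 ± 1.77 against 3.29 ± 0.355 TPM (SD, n = 6; 1.09, SE 0.146, adjusted p = 0.00111). DMSO gave 5.56 ± 0.729 TPM for KRT32 (SD, n = 3).

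The 14 genes higher with AZD9496 than with SAR439859 and also higher than DMSO on average over both ligands included MACF1, a gene for a protein that links microtubules and actin, and HSPA5, the gene for the main chaperone of the endoplasmic reticulum. Both were named after their values were seen. After median-of-ratios scaling 4 of the 601 genes called higher with AZD9496 (0.666%) lay higher than DMSO.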
